A study of Mus musculus with 12 samples.

Results

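The 33 endothelial cell genes described here are a fixed list of genes that blood and lymph vessel lining is known to express, from the junction protein Pecam1 to the Notch ligand Dll4. They were taken by mouse gene symbol from a table of 55416 genes, all 33 were found there, and all 33 passed a mean normalised read count of at least 1 over the libraries. The study sequenced polyadenylated RNA of cultured neonatal mouse cardiomyocytes in 12 libraries. It asked how lowering the long noncoding RNA lincRNA-p21 alters the short-term hypertrophic response of these cells. All cells received a GapmeR, a short antisense oligonucleotide with which RNase H cuts the matching RNA, and either phenylephrine (PE), which enlarges cardiomyocytes through alpha1-adrenergic receptors, or PBS. PE was given for 24 hours. The 4 groups held 3 libraries each. They were PE with the lincRNA-p21 GapmeR (PE knockdown), PE with the GapmeR negative control (PE control), PBS with the lincRNA-p21 GapmeR (PBS knockdown) and PBS with the GapmeR negative control (PBS control). The labels state neither separate cultures nor animals, so p-values measure the spread between these libraries, which may be technical.

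Endothelial cells line every vessel and the chambers of the heart. They hold together through junction proteins such as VE-cadherin, the product of Cdh5, and they grow and survive through VEGF receptors (Flt1, Kdr, Flt4) and the angiopoietin receptor Tie2, the product of Tek. Transcription factors of the ETS family (Erg, Fli1) and of the SOXF group (Sox7, Sox17, Sox18) maintain their identity, and many endothelial promoters and enhancers carry ETS motifs. In the heart they lie beside the cardiomyocytes and exchange growth factors and nitric oxide with them.

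The labels name no endothelial cells, only cardiomyocytes. The label markers were nevertheless read in every library. Over the 12 libraries Pecam1 (GRCm38, chr11:106654217-106750628, minus strand) had 244 to 974 normalised reads, Cdh5 (chr8:104101625-104144511, plus strand) 477 to 1948 and Kdr (chr5:75932827-75978458, minus strand) 141 to 361. The cultures therefore held RNA of endothelial marker genes beside that of cardiomyocytes, whose 10 markers summed to between 576785 and 1205990 normalised reads. In bulk RNA, a difference in the number of endothelial cells and a difference in RNA per endothelial cell cannot be told apart. Nor can RNA of these genes made by other cells of the cultures, and which cells made it was not tested. These limits hold for every result below.

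Libraries held 21325485 to 22139681 reads in genes. The target, Trp53cor1 (the gene of lincRNA-p21), had 8.56, 9.97 and 8.93 normalised reads in the PE knockdown libraries, against 56.0, 34.0 and 34.7 in the PE control libraries. In PBS it had 12.7, 22.6 and 10.1 with the knockdown, against 59.8, 70.6 and 63.2 with the control. All knockdown libraries were below all control libraries. PE knockdown replicate 1, PBS knockdown replicate 2 and PBS control replicate 2 lay farthest from their groups, with a root mean square deviation of 0.404, 0.430 and 0.447 on the log2 scale, where the other 9 libraries lay between 0.360 and 0.387. Mitochondrial genes held 4.33% to 10.7% of reads.

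Set per kilobase of exon, so that genes can be compared with each other, endoglin (Eng, a TGF-beta co-receptor) was the highest member in every group. Its level was 1304 ± 123 normalised reads per kilobase in PE knockdown, 1550 ± 165 in PE control, 1136 ± 293 in PBS knockdown and 1125 ± 108 in PBS control (mean ± SD, n = 3 in each). The genes next to it in the order differed between stimuli. Cdh5 and Plvap, a protein of the diaphragms of fenestrated and venous endothelium, followed it in both PE groups, at 417 ± 41.7 and 349 ± 28.3 per kilobase in PE control. Cd34, a sialomucin of endothelial and progenitor cells, followed it in both PBS groups, at 255 ± 22.3 in PBS control, with Cdh5 next at 125 ± 13.1. At the low end stood Dll4, Vwf (the clotting protein von Willebrand factor) and, in PBS, Lyve1, a hyaluronan receptor: Dll4 had 2.14 ± 0.603 per kilobase in PE control and 1.65 ± 1.00 in PBS control. Most neighbours in the order did not differ beyond their spread. Library values of neighbours failed to overlap for 9 of the neighbouring pairs in PE knockdown, 10 in PE control, 8 in PBS knockdown and 4 in PBS control.

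**Figure D1:**
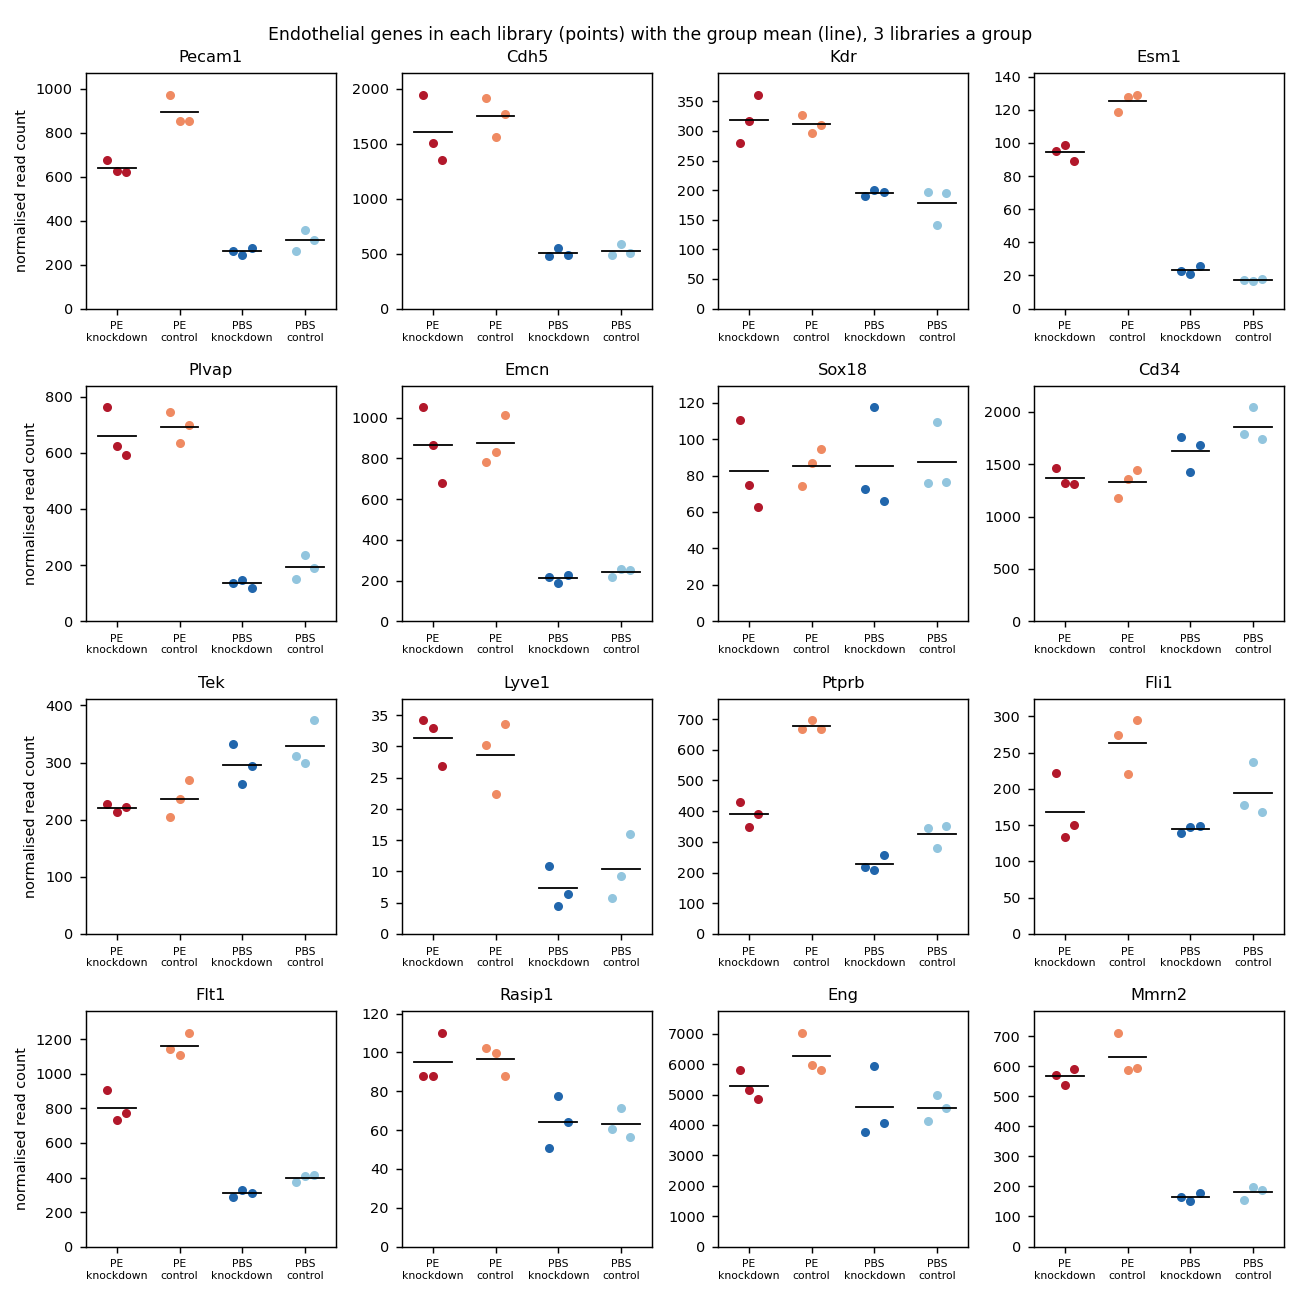
Normalised read counts (linear axis from 0) of 16 endothelial members, with 1 point per library and a bar at the mean of each group of 3. Groups run from left to right as PE knockdown, PE control, PBS knockdown and PBS control. Esm1, Plvap, Emcn, Cdh5 and Mmrn2 stand higher in both PE groups than in both PBS groups, while the means of Tek are lower in both.

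The main change among these genes came with PE. In control cells 24 of the 33 rose, 2 fell and 7 did not pass the test, where 12.6% of the 21799 genes tested rose and 12.8% fell (25.4% called in all). The median log2 change of the members was 0.95, against -0.00 over all genes tested. A call means an adjusted p of at most 0.05 in limma on log2(normalised reads + 1), with Benjamini-Hochberg adjustment over all genes tested, and the error of every log2 change is its standard error. Values of 24 members lay higher in all 3 PE libraries than in all 3 PBS libraries, a pattern seen in 21% of all genes, and 2 lay lower in all, as did 20.7% of all genes. These called and separated members are drawn in the plot of changes with PE.

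Among the 6 growth factor receptors 5 rose and 1 fell. Flt1, a VEGF receptor that also exists as a soluble trap for VEGF, had 1144, 1107 and 1240 normalised reads in PE control libraries, against 375, 408 and 413 in PBS control libraries. The groups lay far apart, with a log2 change of 1.54 ± 0.11 (limma, adjusted p = 2.5e-09). Kdr, the main signalling receptor for VEGF-A, had 326, 296 and 310, against 197, 141 and 195, which also did not overlap (0.82 ± 0.14, adjusted p = 2.1e-04 in limma). Flt4, the receptor for VEGF-C and VEGF-D that marks lymphatic and angiogenic endothelium, rose by 1.40 ± 0.15, and Tie1, an orphan receptor that pairs with Tie2, rose 2.83-fold (log2 standard error 0.12). Endoglin had 7041, 5989 and 5799 with PE and 4115, 4990 and 4556 with PBS, a smaller separation of 0.46 ± 0.14 (limma, adjusted p = 0.020). Its call was lost when values were rescaled to the same total and without any 1 of PBS control replicates 1 and 3 and PE control replicate 1 (adjusted p up to 0.11).

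Tek moved the other way from its partner Tie1. It had 205, 236 and 269 normalised reads in PE control libraries, against 312, 299 and 375 in PBS control libraries. All PE values lay below all PBS values, and Tek fell by 0.47 ± 0.14 on the log2 scale (limma, adjusted p = 0.014). Leaving out PE control replicate 1 or PBS control replicate 3 ended this call (adjusted p up to 0.091).

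Of the 14 adhesion and surface proteins 10 rose, 1 fell and 3 did not pass. Plvap had 747, 634 and 699 normalised reads in PE control libraries, against 151, 236 and 189 in PBS control libraries (log2 change 1.87 ± 0.15, limma adjusted p = 2.1e-08). Emcn, endomucin, a sialoglycoprotein of venous and capillary endothelium, had 784, 830 and 1013, against 216, 259 and 253 (1.84 ± 0.15, adjusted p = 1.5e-08). For both genes all PE values lay far above all PBS values. Cdh5 had 1913, 1565 and 1775, against 484, 588 and 504, and Pecam1, a junctional immunoglobulin protein, had 974, 853 and 854, against 262, 358 and 312. The groups lay far apart for both, with log2 changes of 1.74 ± 0.13 for Cdh5 and 1.53 ± 0.12 for Pecam1 (adjusted p = 5.3e-09 and 1.2e-08 in limma). Lyve1 was low, with 30.2, 22.3 and 33.6 normalised reads in PE and 5.69, 9.20 and 16.0 in PBS (1.48 ± 0.37, adjusted p = 0.0051 in limma).

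Further surface genes that rose were the receptor tyrosine phosphatase Ptprb (VE-PTP, which binds VE-cadherin and Tie2) by 1.06 ± 0.12, the guidance receptor Robo4 by 1.02 ± 0.20, Ecscr by 0.95 ± 0.14, Icam2 by 0.88 ± 0.18 and the junction protein Esam by 0.46 ± 0.14. Cd34 was the member that fell, with 1181, 1359 and 1442 normalised reads in PE control libraries, against 1791, 2044 and 1741 in PBS control libraries. Its libraries did not overlap, and the log2 change was -0.49 ± 0.11 (limma, adjusted p = 0.0022). The tight-junction protein Cldn5 (0.70 ± 0.37), the lectin Clec14a (-0.04 ± 0.16) and Gpihbp1, which holds lipoprotein lipase on capillaries (-0.21 ± 0.35), did not pass. Cldn5 and Gpihbp1 were read at 9.77 to 47.9 normalised reads in the 12 libraries, so their intervals were wide.

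Of the 4 secreted or matrix proteins 3 rose. Esm1 (chr13:113209659-113218098, plus strand) encodes endocan, a proteoglycan secreted by endothelial tip cells. It had 118, 128 and 129 normalised reads in PE control libraries, against 17.1, 16.4 and 17.9 in PBS control libraries. The libraries of each group were tight, and its 6.95-fold rise was the largest of the 33 members (log2 change 2.80 ± 0.19, limma adjusted p = 1.8e-09). Mmrn2, a multimerin of the subendothelial matrix, had 712, 587 and 595, against 154, 198 and 190 (1.80 ± 0.13, adjusted p = 2.9e-09 in limma). Egfl7, a secreted factor of growing vessels, rose by 1.23 ± 0.14. It shares 64 bases of exon with Agpat2 on the opposite strand, whose mean of 817 normalised reads is above its own 295, and strand use in counting is not given in the sources used here. In all, 8 members share exon bases with another gene, and in this 1 case the other gene has the higher mean. Vwf did not pass (-0.11 ± 0.31).

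Both signalling enzymes rose. Nos3, endothelial nitric oxide synthase, changed by 1.32 ± 0.18. Rasip1, a small-GTPase regulator needed for vessel lumens, had 102, 99.9 and 87.9 normalised reads in PE control libraries, against 60.7, 71.6 and 56.6 in PBS control libraries (0.61 ± 0.19, limma adjusted p = 0.021). Its libraries did not overlap, yet 5 of the 23 alternatives lost the call. The Notch ligand Dll4, a tip cell gene, had only 6.38 to 10.9 normalised reads in PE control and 2.05 to 9.49 in PBS control and did not pass (0.48 ± 0.52).

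Of the 6 transcription factors 4 rose: Tal1, a factor of blood and endothelial progenitors, by 1.26 ± 0.24, Erg by 1.13 ± 0.19, Sox17 by 0.84 ± 0.26 (lost in 5 of the 23 alternatives) and Sox7 by 0.76 ± 0.17. Sox18 had 74.3, 87.1 and 94.4 normalised reads in PE control libraries, against 75.9, 109 and 76.5 in PBS control libraries. These values interleaved, with a log2 change of -0.02 ± 0.24 (95% interval -0.52 to 0.48). Fli1 stood at 0.44 ± 0.18 (limma, adjusted p = 0.082) and passed in 4 of the 23 alternatives.

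Rescaling the libraries to the same total, in place of the deposited median-of-ratios scale, put the median of genes with a mean of at least 50 at -0.15 (0.01 on the deposited scale) and made 71.8% of all calls lower ones (50.5% on the deposited scale). On that scale 20 members rose and 2 fell. The median change of the members was then 0.79. Without the 3 libraries far from their groups 25 members rose and 2 fell.

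**Figure D2:**
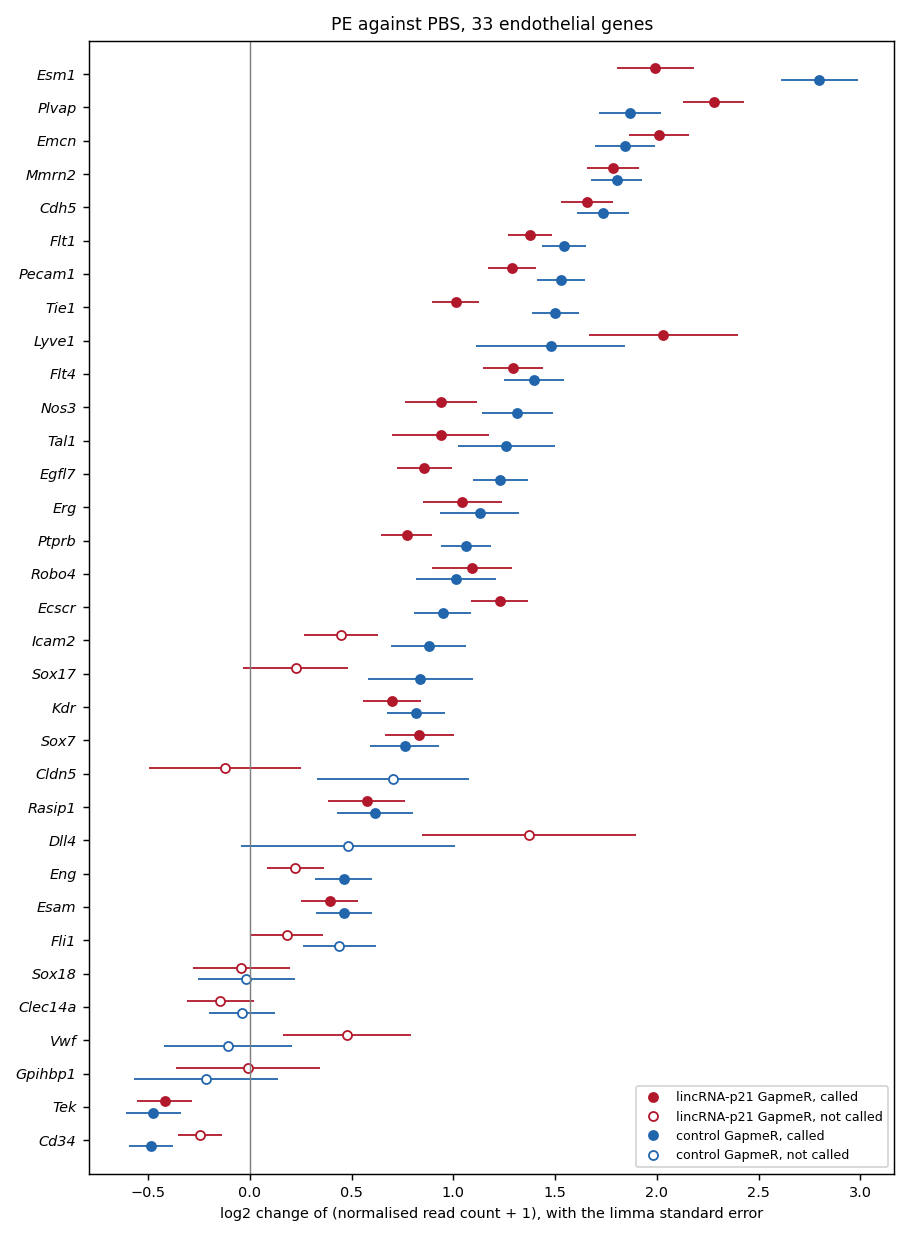
Log2 change with PE (points, with the standard error) of the 33 endothelial members in knockdown cells and in control cells, ordered by the change in control cells. Filled points passed the adjusted p of 0.05. Esm1 leads in control cells at 2.80 and Plvap in knockdown cells at 2.28, and Tek lies below 0 in both.

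Promoter sequence could be read for 17 of the 33 members in RefSeq (build GRCm38.p6), as the 250 bases before each gene start. The ETS-type motif CAGGAA, searched with its reverse complement TTCCTG, was present in 9 of these 17 (52.9%) and in 25.4% of all 27025 promoters of the same length. The ETS motif CCGGAA with TTCCGG was in 1 of 17 (12.2% of all), the GATA motif AGATAA with TTATCT in 1 of 17 (10.3%) and the SOX motif ACAAAG with CTTTGT in 2 of 17 (16.5%). The windows below are shown because they belong to 3 members that rose with PE (Esm1, Emcn, Tie1), to both members that fell (Tek, Cd34), and to Flt1, which rose with PE and fell with the knockdown. Capitals mark CAGGAA or TTCCTG.
Esm1, chr13:113209409-113209658, plus strand: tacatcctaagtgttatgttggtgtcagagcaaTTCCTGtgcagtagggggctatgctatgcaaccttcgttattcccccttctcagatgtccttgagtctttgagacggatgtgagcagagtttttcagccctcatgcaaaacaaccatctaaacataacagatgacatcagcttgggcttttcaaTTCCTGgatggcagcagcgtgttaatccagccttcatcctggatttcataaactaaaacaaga
Emcn, chr3:137340828-137341077, plus strand: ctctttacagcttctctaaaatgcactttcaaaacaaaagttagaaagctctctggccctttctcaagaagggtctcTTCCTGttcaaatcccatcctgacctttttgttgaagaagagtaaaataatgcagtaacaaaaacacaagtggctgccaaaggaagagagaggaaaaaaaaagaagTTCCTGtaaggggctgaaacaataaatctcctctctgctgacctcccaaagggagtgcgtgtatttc
Tie1, chr4:118489850-118490099, minus strand: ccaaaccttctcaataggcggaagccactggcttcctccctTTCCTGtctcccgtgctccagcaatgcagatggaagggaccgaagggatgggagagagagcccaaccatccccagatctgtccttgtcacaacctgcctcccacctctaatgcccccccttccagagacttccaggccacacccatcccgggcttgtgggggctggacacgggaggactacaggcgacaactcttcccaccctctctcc
Tek, chr4:94739039-94739288, plus strand: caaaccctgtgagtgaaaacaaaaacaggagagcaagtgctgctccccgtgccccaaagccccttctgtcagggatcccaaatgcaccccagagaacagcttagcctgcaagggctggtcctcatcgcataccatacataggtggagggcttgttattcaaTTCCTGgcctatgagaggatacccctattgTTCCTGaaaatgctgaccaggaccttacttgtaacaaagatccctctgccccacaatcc
Cd34, chr1:194938571-194938820, plus strand: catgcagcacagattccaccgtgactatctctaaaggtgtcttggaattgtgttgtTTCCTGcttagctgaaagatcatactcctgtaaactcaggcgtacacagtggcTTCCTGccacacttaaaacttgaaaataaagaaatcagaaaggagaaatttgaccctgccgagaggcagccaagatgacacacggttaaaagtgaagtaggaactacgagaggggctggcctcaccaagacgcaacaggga
Flt1, chr5:147726012-147726261, minus strand: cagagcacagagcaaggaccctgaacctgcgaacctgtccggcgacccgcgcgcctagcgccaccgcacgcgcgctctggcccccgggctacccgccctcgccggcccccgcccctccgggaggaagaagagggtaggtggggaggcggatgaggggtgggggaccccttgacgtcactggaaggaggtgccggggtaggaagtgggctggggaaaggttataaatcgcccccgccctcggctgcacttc
The motif was present 2 times in the windows of Esm1, Emcn, Tek and Cd34 and 1 time in that of Tie1. Of the 17 members with a window, 12 rose with PE in control cells and 6 of these carried the motif, while both that fell carried it. The Flt1 window held none, and these letters alone do not show whether a factor binds.

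The same comparison in knockdown cells set other libraries against each other, while the spread was estimated from all 12 libraries. There 21 members rose, 1 fell and 11 did not pass, where 13.4% of all genes rose and 14.0% fell (27.4% called). Their median log2 change was 0.86, against 0.00 over all genes tested. Library values of 23 members lay higher with PE in full (19.6% of all genes) and of 1 lower (19.1%). All 21 had also risen in control cells, Tek fell in both, and 7 members passed in neither. On the scale of equal totals 19 members rose and 2 fell in knockdown cells, where the median of genes with a mean of at least 50 was -0.15 (deposited scale -0.00) and lower calls made up 69.3% of all calls (deposited scale 51.1%). Without the 3 distant libraries 22 rose and 2 fell.

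The largest changes in knockdown cells were those of Plvap, Lyve1 and Emcn. Plvap had 762, 623 and 593 normalised reads in PE knockdown libraries, against 137, 148 and 119 in PBS knockdown libraries, a log2 change above those of the other members (2.28 ± 0.15, limma adjusted p = 1.8e-09). Lyve1 had 34.3, 32.9 and 26.8, against 10.9, 4.52 and 6.42 (2.03 ± 0.37, adjusted p = 2.9e-04), and Emcn had 1051, 868 and 680, against 219, 190 and 226 (2.01 ± 0.15, adjusted p = 5.7e-09 in limma). None of these values overlapped between the groups.

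Esm1 had 95.3, 98.7 and 89.3 normalised reads in PE knockdown libraries, against 22.7, 20.8 and 25.7 in PBS knockdown libraries. It still separated fully, with a log2 change of 1.99 ± 0.19 (limma, adjusted p = 1.8e-07). The label markers rose as well: Cdh5 by 1.66 ± 0.13, Pecam1 by 1.29 ± 0.12 and Kdr by 0.70 ± 0.14.

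Tek had 227, 213 and 221 normalised reads in PE knockdown libraries, against 333, 262 and 294 in PBS knockdown libraries, with every PE value lower (-0.42 ± 0.14, limma adjusted p = 0.026). That call was lost in 5 of the 23 alternatives. Cd34 had 1466, 1317 and 1315, against 1757, 1424 and 1686, which overlapped, and did not pass (-0.24 ± 0.11, limma adjusted p = 0.11). Eng, Icam2 and Sox17 were called in control cells and not in knockdown cells, where they stood at 0.22 ± 0.14, 0.45 ± 0.18 and 0.23 ± 0.26, and the difference between the cells was not called for any of them. Sox18 had 110, 74.8 and 62.5, against 72.5, 117 and 66.0, and again interleaved (-0.04 ± 0.24).

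Whether PE acted differently with the knockdown was tested as an interaction. It was called for 0 of the 33 members (0.055% of all genes). In limma, 1157 of all 21799 genes tested had a negative and 986 a positive interaction at an unadjusted p under 0.05. Of the 33 members 2 reached that p. These were Esm1, whose PE change was smaller by 0.81 ± 0.27 in knockdown cells (95% interval -1.37 to -0.25, limma adjusted p = 0.35), and Tie1 (-0.49 ± 0.16, interval -0.83 to -0.15, adjusted p = 0.35). edgeR, DESeq2 and limma-voom also called 0 members. The interaction of Cdh5 was -0.08 (interval -0.46 to 0.30), that of Pecam1 -0.24 (-0.59 to 0.11) and that of Kdr -0.12 (-0.54 to 0.30), and differences within these intervals were not detectable with these libraries. The smallest interaction among members with a mean of at least 50 was that of Mmrn2 (-0.02 ± 0.18), which had 572, 539 and 590 normalised reads in PE knockdown libraries, against 165, 150 and 177 in PBS knockdown libraries.

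With PE present, in a comparison that shares the PE control libraries with that of PE in control cells, the knockdown lowered 4 of the 33 members and raised 0, where 7.14% of all genes fell and 4.57% rose (11.7% called). An unadjusted p under 0.05 in limma was reached by 5 members that were lower and 0 that were higher. Of all 21799 genes tested, 2720 were lower and 2368 higher at that p. The median over members was -0.08, against 0.01 over all genes. Library values of 7 members lay below those of the controls in full, as did 16.1% of all genes, and of 2 members above, as did 14.4%. edgeR, DESeq2 and limma-voom likewise called 4 members lower and 0 higher. On the scale of equal totals 4 were lower and 0 higher. On it the median of genes with a mean of at least 50 was 0.08 (deposited scale -0.00), and lower calls made up 42.3% of all calls (deposited scale 60.9%).

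Ptprb (chr10:116275523-116389535, plus strand) had 430, 348 and 389 normalised reads in PE knockdown libraries, against 668, 697 and 668 in PE control libraries. The groups lay far apart (log2 change -0.80 ± 0.12, limma adjusted p = 1.7e-04), and the call was kept in all 23 alternatives. Flt1 had 904, 735 and 776, against 1144, 1107 and 1240, again without overlap and kept in all 23 (-0.53 ± 0.11, adjusted p = 0.0021 in limma).

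Pecam1 had 675, 625 and 620 normalised reads in PE knockdown libraries, against 974, 853 and 854 in PE control libraries (-0.48 ± 0.12, limma adjusted p = 0.011). No values overlapped, but the call was lost without PE control replicate 1, PE knockdown replicate 2 or PE knockdown replicate 3 (adjusted p up to 0.070). Fli1 had 222, 134 and 151, against 275, 220 and 295, with PE knockdown replicate 1 inside the control range (-0.66 ± 0.18, limma adjusted p = 0.019). It lost its call without PE control replicate 1 or 3 or PE knockdown replicate 2 or 3 (adjusted p up to 0.13). Without the 3 libraries far from their groups 6 members were lower, with Cdh5 and Eng added (adjusted p = 0.019 and 0.0055 in limma, the lowest of all alternatives, which reached up to 0.95 and 0.65).

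The other 29 members did not pass, and 4 of them lay below the controls in full. Esm1 had 95.3, 98.7 and 89.3 normalised reads in PE knockdown libraries, against 118, 128 and 129 in PE control libraries, and was the member outside the 4 calls with an unadjusted p under 0.05 (-0.40 ± 0.19, limma adjusted p = 0.21). Erg (-0.31 ± 0.19), Nos3 (-0.25 ± 0.18) and Clec14a (-0.22 ± 0.16) were separated from the controls in the same direction.

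Cdh5 had 1948, 1507 and 1357 in PE knockdown libraries, against 1913, 1565 and 1775 in PE control libraries, and Kdr had 279, 317 and 361, against 326, 296 and 310. Both sets interleaved, with -0.14 ± 0.13 and 0.03 ± 0.14. Rasip1, with 87.8, 87.7 and 110, against 102, 99.9 and 87.9, had the smallest difference among members with a mean of at least 50 (-0.03 ± 0.19, 95% interval -0.42 to 0.37). Robo4 (0.26 ± 0.20) and Dll4 lay above the controls in full. The largest positive value was that of Dll4, at 16.1, 16.9 and 19.9, against 7.54, 6.38 and 10.9. Its libraries did not overlap, at few reads, and it did not pass (1.03 ± 0.52, limma adjusted p = 0.25).

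In PBS the knockdown lowered 1 member and raised 0, where 3.21% of all genes fell and 1.36% rose (4.57% called). The member was Ptprb, with 218, 209 and 257 normalised reads in PBS knockdown libraries, against 344, 280 and 351 in PBS control libraries. The values did not overlap (-0.51 ± 0.12, limma adjusted p = 0.020), but the call was lost in 5 of the 23 alternatives, equal totals among them, with adjusted p up to 0.12. Flt1 had 287, 329 and 311, against 375, 408 and 413, also without overlap (-0.37 ± 0.11, adjusted p = 0.056 in limma), and passed in 5 alternatives. Without the 3 distant libraries 3 members were lower, with Flt1 and Plvap added.

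Library values of 5 members lay below in full (11.9% of all genes) and of 4 above (10.1%). At an unadjusted p under 0.05 in limma, 2044 of all 21799 genes tested were lower and 1775 higher in PBS. Of the members 6 were lower and 5 higher at that p. edgeR, DESeq2 and limma-voom called 0 members higher, while a stricter expression filter (CPM 1 or more in 3 libraries) called 1, Icam2. The 5 included Icam2 (0.59 ± 0.18, limma adjusted p = 0.075, from 0.041 to 0.23 over the alternatives) and Tie1 (0.34 ± 0.12, adjusted p = 0.11). Eng had 3766, 5955 and 4073 in PBS knockdown libraries, against 4115, 4990 and 4556 in PBS control libraries, with replicate 2 of the knockdown highest of all 6 (-0.01 ± 0.14). With equal totals the median of genes with a mean of at least 50 was 0.08 (deposited scale 0.01), and lower calls made up 51.0% of all calls (deposited scale 70.2%).

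**Figure D3:**
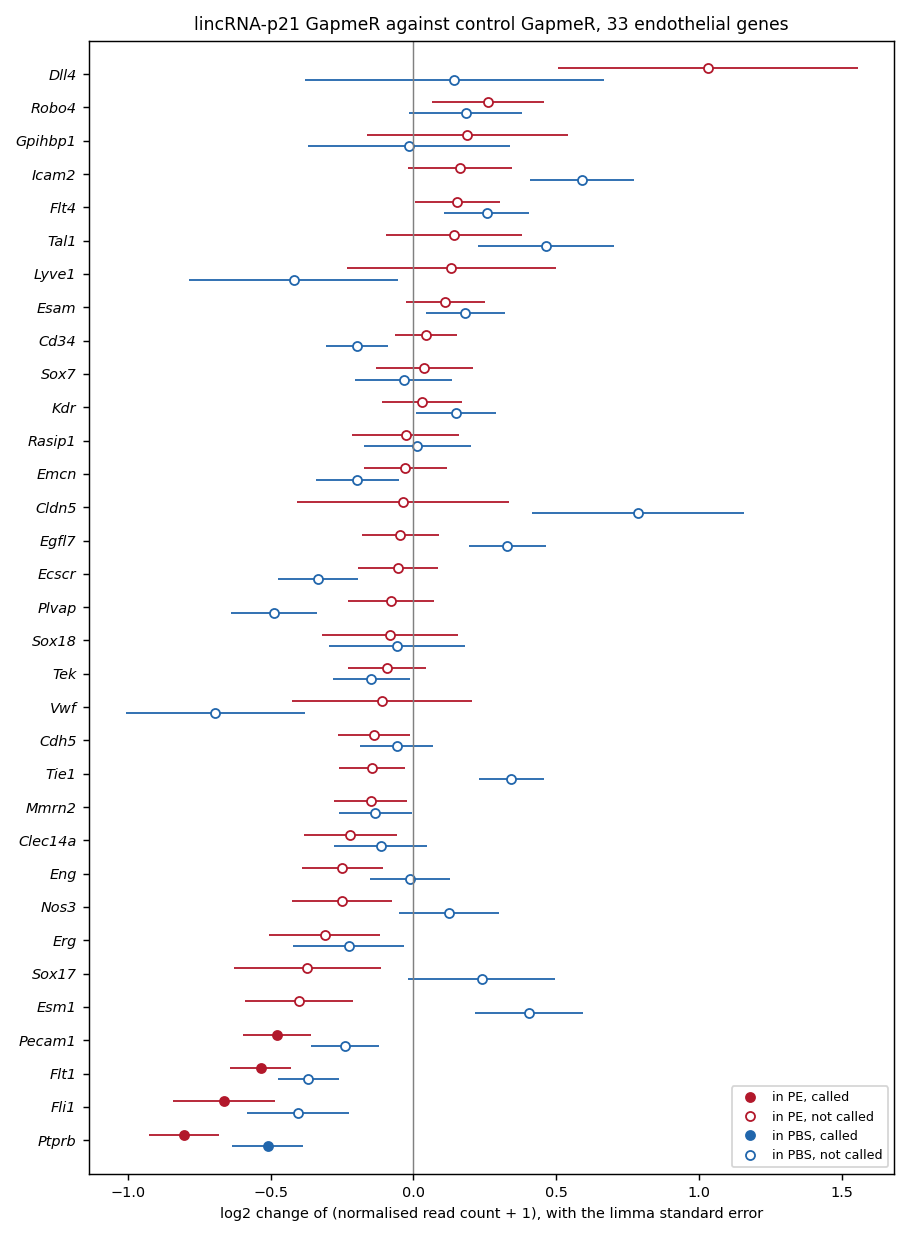
Log2 change with the lincRNA-p21 GapmeR (points, with the standard error) of the 33 endothelial members in PE and in PBS, ordered by the change in PE. Filled points passed the adjusted p of 0.05: Ptprb, Fli1, Flt1 and Pecam1 in PE, and Ptprb in PBS, all lower.

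The members that fell with the knockdown were long genes. Genomic spans in GENCODE M21 (GRCm38) ran from 1.42 kb for Cldn5 to 227 kb for Erg. Of the 6 members of at least 100 kb (Ptprb, Fli1, Tek, Vwf, Flt1 and Erg), 3 were lower in PE. Of the 8 members from 20 to 100 kb, 1 was lower, namely Pecam1 at 96.4 kb, and of the 19 members under 20 kb, 0 were lower.

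The same order held over all genes tested: 33.7% of genes of at least 100 kb, 7.63% of those from 20 to 100 kb and 1.88% of those under 20 kb were lower with the knockdown in PE. In PBS the shares were 16.7%, 3.12% and 0.732%. The median change of the 6 longest members in PE was -0.42, against -0.34 over all genes of that length. Across the 33 members Spearman's rho between span and change was -0.40 in PE and -0.49 in PBS, and between mean level and change -0.36 and -0.33. These are descriptions over genes that share the same libraries. The part of gene length in the knockdown changes of the endothelial genes was not tested.

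**Figure D4:**
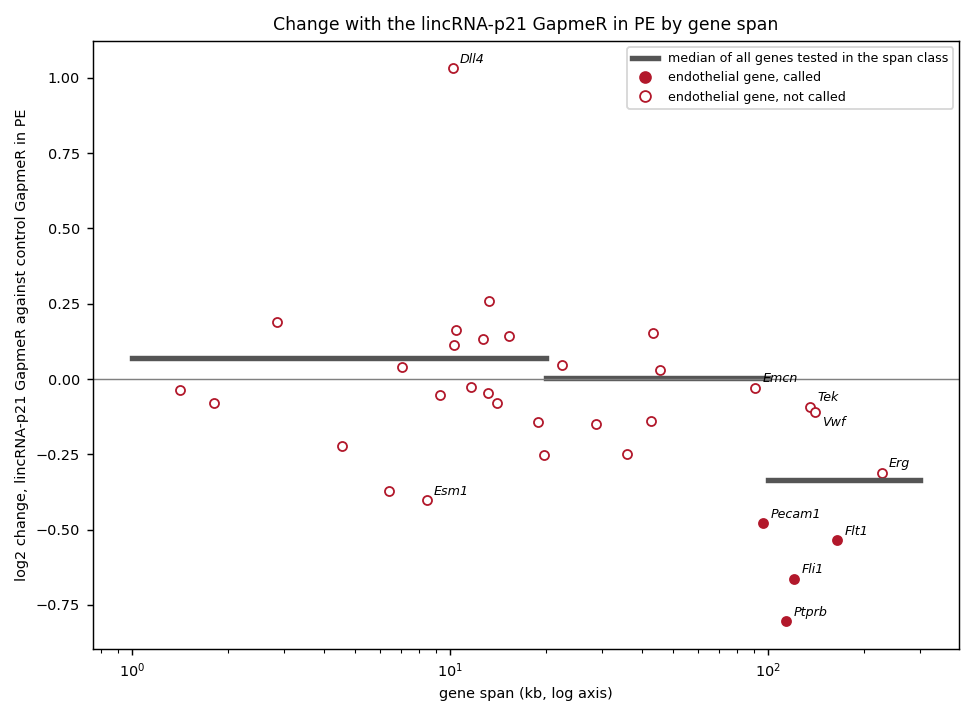
Log2 change with the lincRNA-p21 GapmeR in PE against genomic span in kb (log axis). Points are the 33 endothelial members, filled where called, and horizontal lines are medians over all genes tested under 20 kb, from 20 to 100 kb and from 100 kb up. In PE the called members lie at 96.4 kb and above. Pecam1, at 96.4 kb, falls in the class from 20 to 100 kb, whose line is at 0.005. The line for the longest genes, from 100 kb up, is at -0.34.

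Ligands of the endothelial receptors were split with PE. In control cells 4 of 9 VEGF and angiopoietin family ligands rose and 2 fell, where 12.6% of all genes rose and 12.8% fell. Angpt1, the agonist ligand of Tie2, had 93.7, 81.8 and 124 normalised reads in PE control libraries, against 477, 398 and 378 in PBS control libraries (-2.07 ± 0.19, limma adjusted p = 1.2e-07). Angpt2, a context-dependent Tie2 antagonist made by endothelium, had 630, 543 and 624, against 236, 306 and 249 (1.19 ± 0.13, adjusted p = 1.3e-06 in limma). The groups did not overlap for either gene: the agonist fell and the endothelial antagonist rose in the same libraries in which Tek fell and Tie1 rose. Vegfd, a ligand of Flt4, fell by 1.63 ± 0.14 on the log2 scale, Apln (apelin) rose by 1.49 ± 0.13 and Pgf, a ligand of Flt1, rose by 1.24 ± 0.18. In knockdown cells, whose libraries are others, 4 rose and 3 fell (13.4% and 14.0% of all genes), with Angpt1 at -1.70 ± 0.19 and Pgf at 1.90 ± 0.18. With the knockdown in PE, Pgf alone of the 9 was called, where 11.7% of all genes were, with 263, 179 and 195 normalised reads in PE knockdown libraries, against 117, 133 and 129 in PE control libraries (0.73 ± 0.18, limma adjusted p = 0.011).

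Among 18 co-receptors and pathway genes 6 rose and 2 fell with PE in knockdown cells (13.4% and 14.0% of all genes), and 8 rose and 0 fell in control cells (12.6% and 12.8%). They included the transcription factors Gata2 (1.17 ± 0.19 in control cells) and Ets1 (0.86 ± 0.10) and the VEGF co-receptor Nrp2 (0.81 ± 0.10). With the knockdown 4 of the 18 were lower and 0 higher in PE, where 7.14% of all genes were lower and 4.57% higher. Smad6, an inhibitor of BMP signalling, had 400, 379 and 365 normalised reads in PE knockdown libraries, against 1517, 1436 and 1330 in PE control libraries, with the groups far apart (-1.90 ± 0.14, limma adjusted p = 2.0e-08). Klf2, a factor induced by flow in endothelium, stood at -0.62 ± 0.15, Nrp2 at -0.60 ± 0.10 and Bmpr2, a BMP receptor, at -0.39 ± 0.12. In PBS 2 of the 18 were lower and 1 higher, where 3.21% of all genes were lower and 1.36% higher. Smad6 (-1.58 ± 0.14) and Nrp2 (-0.60 ± 0.10) were lower and Id1, a BMP target, was higher (0.54 ± 0.15).

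Of 10 Notch pathway genes 2 rose and 2 fell with PE in control cells, where 12.6% of all genes rose and 12.8% fell. Hes1, a Notch target, changed by 1.38 ± 0.10 and Notch4, the endothelial Notch receptor, by 1.09 ± 0.27, while the targets Heyl and Hey2 changed by -1.69 ± 0.29 and -1.47 ± 0.14. In knockdown cells 3 rose and 3 fell (13.4% and 14.0% of all genes). With the knockdown in PE 2 of the 10 were higher and 1 lower, where 4.57% of all genes were higher and 7.14% lower. The ligands Jag2 (0.96 ± 0.18) and Jag1 (0.46 ± 0.10) were higher and Hes1 was lower (-0.50 ± 0.10).

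A list of 27 further endothelial genes held none of the 33. With PE 15 rose and 1 fell in knockdown cells (13.4% and 14.0% of all genes), with a median of 0.61, and 16 rose and 1 fell in control cells (12.6% and 12.8%), with a median of 0.74. They included Thbd, the anticoagulant receptor thrombomodulin, at 2.42 ± 0.13 in control cells, the scavenger receptor Stab1 at 1.61 ± 0.14 and Cd93 at 1.31 ± 0.11. With the knockdown in PE 1 of the 27 was lower and 1 higher, where 7.14% of all genes were lower and 4.57% higher. The small GTPase Rhoj was lower (-0.52 ± 0.11) and Podxl, podocalyxin, higher (0.50 ± 0.12). Of 9 genes listed for endothelial activation 9 rose with PE in knockdown cells, and 8 rose and 0 fell in control cells. Among them were the cytokine Lif (2.34 ± 0.13 in control cells) and the leukocyte adhesion receptor Selp (2.25 ± 0.18). The shares of all genes with PE are those given for the further endothelial genes with PE. Angpt2 stands on this list and on that of the ligands, and Selp on this list and on one of venous genes. Bulk RNA does not show which cells of the cultures made the genes of these lists, and this was not tested.

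Markers of other cells moved with PE beside the endothelial genes. Their counts stand against 13.4% of all genes that rose and 14.0% that fell in knockdown cells, and 12.6% and 12.8% in control cells. The 33 members summed to 15017 to 17645 normalised reads in PE knockdown, 17570 to 19442 in PE control, 9615 to 11663 in PBS knockdown and 10104 to 11726 in PBS control. Eng and Cd34 were the highest members in both PBS groups. Without them the sums were 8853 to 10357, 10222 to 11221, 4092 to 4284 and 4198 to 4691 in the same order of groups. Of 13 macrophage markers tested 9 rose and 0 fell with PE in knockdown cells, and 7 rose and 0 fell in control cells, led there by the complement gene C1qc at 3.15 ± 0.26. The macrophage list of 14 genes summed to 3376 to 4010 in PE knockdown, 3610 to 4078 in PE control, 2577 to 2809 in PBS knockdown and 2665 to 3312 in PBS control, with Timd4 at 0 in all libraries. Lyve1 is also carried by resident macrophages.

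Of 4 platelet and megakaryocyte genes tested 2 rose with PE in each GapmeR, Ppbp by 2.85 ± 0.51 and Pf4 by 1.34 ± 0.17 in control cells. The list of 5 summed to 253 to 270, 224 to 243, 101 to 129 and 101 to 122 normalised reads in the same order of groups. Lymphocyte markers were near 0: the 6 summed to at most 10.8 in any library, and Cd3g and Nkg7 were at 0 in all. The 5 erythroid genes summed to between 3.78 and 57.8.

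Fibroblast markers moved against the endothelial genes. Of 11, 10 fell and 0 rose with PE in knockdown cells, and 9 fell and 0 rose in control cells, led by Lum, lumican, at -2.66 ± 0.13 in control cells. Their sums were 37337 to 40773 in PE knockdown, 45148 to 49406 in PE control, 71043 to 84942 in PBS knockdown and 79156 to 84531 in PBS control. Of 11 mural cell genes 4 rose and 6 fell in knockdown cells and 5 rose and 5 fell in control cells, with the contractile gene Cnn1 at 2.32 ± 0.13 and the pericyte gene Rgs5 at -1.76 ± 0.17 in control cells. Of 8 epicardial genes 2 rose and 5 fell in knockdown cells and 2 rose and 2 fell in control cells. Of 10 cardiomyocyte genes 2 rose and 2 fell in knockdown cells and 2 rose and 1 fell in control cells. Over all genes 27.4% were called in knockdown cells and 25.4% in control cells. The part of these cell types in the endothelial changes was not tested.

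**Figure D5:**
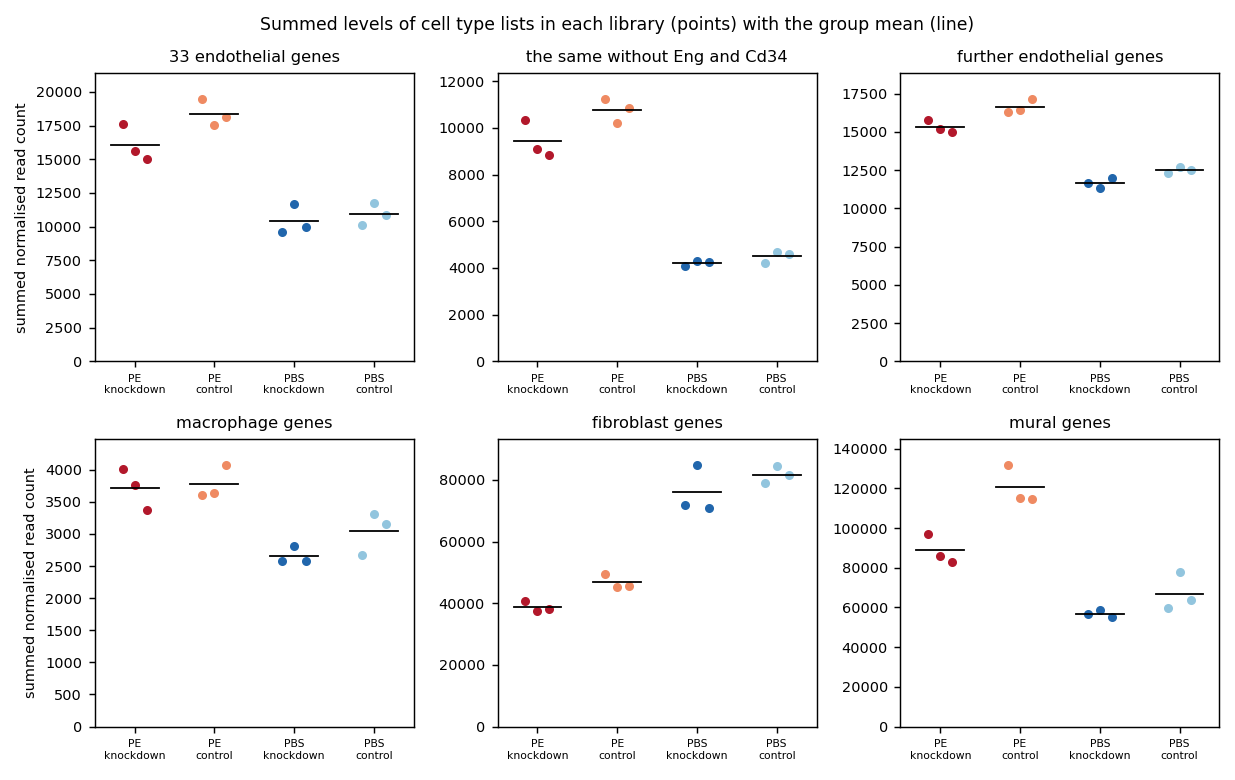
Panels sum normalised reads of the endothelial members, these without Eng and Cd34, further endothelial genes, and macrophage, fibroblast and mural genes. Each has 1 point per library and a bar at each group mean, and every axis starts at 0. Groups run from left to right as PE knockdown, PE control, PBS knockdown and PBS control. Endothelial and macrophage sums are higher in both PE groups and fibroblast sums are lower.

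With the knockdown in PE the lists of these other cells held 2 of 11 fibroblast genes lower, 3 of 11 mural genes lower, 1 of 8 epicardial genes lower and 1 of 10 cardiomyocyte genes lower and 0 higher, where 7.14% of all genes were lower. Of all 21799 genes tested, 2720 were lower and 2368 higher at an unadjusted p under 0.05 in limma. That p was reached by 5 fibroblast, 7 mural, 3 epicardial and 4 cardiomyocyte genes that were lower and by 0 that were higher. The part of these cells in the lower endothelial members was not tested. Among macrophage markers Cx3cr1 (0.69 ± 0.52) and C1qc (0.46 ± 0.26) and among platelet genes Ppbp (0.60 ± 0.51) had the largest differences in PE, and they did not pass. In PBS the calls were C1qc (1.51 ± 0.26, higher) among 13 macrophage markers tested and Col15a1 (-0.45 ± 0.12, lower) among 11 fibroblast genes. Of all genes 1.36% were higher and 3.21% lower there.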

How the data were processed

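RNA-seq of 12 libraries in 4 groups of 3 was used. The submitters' processing notes name STAR, SAMtools, featureCounts and the build GRCm38.p6. Versions, annotation release and strand use are not given in the sources used here. In 1 table, the authors deposited a normalised signal per gene. The values show it to be read counts over a library-wide size factor: 100% of values gave whole reads (tolerance 0.001), 21325485 to 22139681 per library. The table holds 0 columns of no sample.

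Identifiers were named with GENCODE M21, which gave a symbol to 52083 of 55416 genes. The 21799 genes with a mean of at least 1 were fitted as log2(value + 1) with limma 3.58.1 (R 4.3.3, trended prior, 4 group means, two-sided tests, Benjamini-Hochberg at 0.05 over all genes). Comparisons, 5 in all, set PE against PBS within each GapmeR and knockdown against control within PE and within PBS, and tested the interaction. The plan named this limma test for counts divided by a size factor, and edgeR quasi-likelihood had the table held raw counts. As the unit is a normalised signal, edgeR 4.0.16, DESeq2 1.42.0 and limma-voom on recovered reads were alternatives. The other alternatives were pseudocount 0.1, no filter, a CPM filter of 1 in 3 libraries, equal totals, only the libraries compared, a replicate block, each library left out, and 3 distant libraries left out, 23 in all. The test was tested on simulated data.

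The members and lists were chosen with earlier results of these data known. Library values are given for Pecam1, Cdh5 and Kdr, and, in each comparison, for the 3 called members with the largest change, the 1 with the smallest change among those with a mean of at least 50, and any called against the majority; library values of other members were added after their results were seen. From other lists up to 4 called genes were named, or 2 where none was called; Angpt2 was added after its values were seen. An item of the marker lists is not reported here.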

Additional observations from a re-analysis of the deposited data

How the results depend on the processing

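The number of members called stayed within 1.5 times in the comparisons of PE: 19 to 24 of 33 in knockdown cells, where 22 were called, and 21 to 27 in control cells, where 26 were called. The knockdown in PE gave 4 calls and 4 to 6 under settings that kept all libraries or left out the 3 distant ones, but 2 to 4 with 1 library left out: 2 without PE control replicate 1, PE knockdown replicate 2 or PE knockdown replicate 3. The knockdown in PBS gave 1 call, 3 with the CPM filter, 3 with DESeq2, 3 without the 3 distant libraries, 0 with values rescaled to the same total, 0 with only the libraries compared, and 0 to 3 with 1 library left out. The interaction gave 0 in every setting. The causes of these shifts were not tested. No called member changed direction in any setting. The labels do not say whether replicate numbers pair the libraries. Residuals of libraries with the same number correlated between -0.0866 and 0.0448 over all genes. Libraries with different numbers were not compared, so these values do not settle whether libraries were paired. A replicate block gave 21 and 26 calls for PE in knockdown and control cells, 4 and 1 for the knockdown in PE and PBS, and 0 for the interaction. Members with few reads (Dll4, Gpihbp1, Lyve1, Cldn5, Vwf, Sox17) limit what these libraries can show.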

Other observations

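Genes of vessel types moved in both directions with PE, where 13.4% of all genes rose and 14.0% fell in knockdown cells and 12.6% and 12.8% in control cells. Of 7 arterial genes 2 rose and 2 fell in knockdown cells and 3 rose and 2 fell in control cells, where the gap junction gene Gja4 changed by 1.23 ± 0.20, the ephrin Efnb2 by 1.07 ± 0.10 and the kinase Bmx by -1.52 ± 0.34. Of 4 venous genes 2 rose and 2 fell in knockdown cells and 1, Selp, rose in control cells, and of 6 capillary genes tested 1, the homeobox gene Meox2, was called in control cells (-1.49 ± 0.24). Of 4 lymphatic genes tested 3 fell in both: Mmrn1 by 1.85 ± 0.32, Reln by 1.43 ± 0.20 and Prox1 by 0.47 ± 0.10 in knockdown cells, and by 2.02 ± 0.32, 1.18 ± 0.20 and 0.34 ± 0.10 in control cells. In the same libraries the 33 members included Flt4 and Lyve1, which mark lymphatic vessels among others and were higher with PE. Prox1 is also made by cardiomyocytes. Of 4 endocardial genes tested 3 rose and 1 fell in knockdown cells, among them the natriuretic peptide receptor Npr3 (0.80 ± 0.13). In control cells 0 passed limma. There 1 was higher at an unadjusted p under 0.05, as were 3789 of all 21799 genes tested.

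The knockdown changed 11.7% of all genes in PE and 4.57% in PBS. With it Gja5, a connexin on the arterial list, was higher in PE (0.48 ± 0.11) and in PBS (0.53 ± 0.11). Gja5 had 2320 to 4977 normalised reads over the libraries, and which cells made it was not tested. Efnb2 was lower in PE (-0.43 ± 0.10), and Meox2 (-1.19 ± 0.24) and the venous receptor Ackr1 (-2.48 ± 0.50) were lower in PBS. The change of Ackr1 rests on few reads. It had 1.81, 0 and 0.917 normalised reads in PBS knockdown libraries, against 4.74, 11.2 and 12.3 in PBS control libraries. Prox1 (-0.43 ± 0.10) and Reln (-0.90 ± 0.20) were lower in PE.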
